A study of Mus musculus with 8 samples.

Results

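Solute carriers are membrane proteins that move nutrients, ions, metals, nucleotides and metabolites into and out of cells and across the membranes of their organelles, without using ATP directly. Each family number groups carriers that are related in sequence, and related carriers often share a kind of substrate. Some work as facilitators that let a substrate run down its own gradient, and others couple the substrate to a gradient of sodium, protons or chloride that ion pumps build. Leukemia cells are known to take up much glucose and glutamine, and they release lactate through monocarboxylate carriers.

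Genes of this kind were taken from the count table by name, as Slc followed by a family number, a letter and a member number, or as Slco, which marks the organic anion transporting polypeptides. The rule found 207 genes among 12823 rows, in 46 families, of which 9 held a single gene. Of the 207 genes, 198 reached 1 CPM (the count of a gene scaled by the total of its library) in at least 4 libraries and were tested. The 9 genes below that level were Slc13a3, Slc16a4, Slc1a4, Slc22a18, Slc25a27, Slc26a8, Slc43a1, Slc45a3 and Slc5a11. Of the names, 6 belong to genes that are not carriers, namely the scaffold proteins Slc9a3r1 and Slc9a3r2, Slc4a1ap, Slc7a6os, Slc36a3os and the pseudogene Slc2a4rg-ps.

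The libraries held RNA of mouse leukemia cells driven by MLL-AF9, a fusion of the MLL and AF9 genes that turns marrow progenitors into acute myeloid leukemia (AML) cells, and all 8 libraries came from GFP+ cells that carry this fusion from a vector. For the new AML group (4 libraries), bone marrow progenitors were transduced and placed in sublethally irradiated mice, where leukemia arose after about 2 months. The aggressive AML group (4 libraries) is labelled as MLL-AF9 cells obtained after serial transplantations. The study describes them as the new leukemia after 5 rounds of serial transplantation in non-irradiated recipients. No sample label records an age, a strain or a sequencing batch, so that a founding transduction, a batch and the group cannot be told apart. The labels number the libraries of a group as biological replicates, and the study describes male mice.

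Library totals were 7805544 to 9697777 counts, and a gene with 1 count in a library had 0.103 to 0.130 CPM there. The 9 markers of myeloid leukemia cells were all present, and 4 of them were called, Csf1r (log2 fold change -1.70) and Itgam (-0.61) as lower and Kit (0.65) and Meis1 (0.45) as higher. None of the 6 T cell markers was listed in the table, and 7 of the 11 macrophage markers were not listed either. The summed level of 13 neutrophil markers was 375 to 555 CPM in the new AML libraries and 231 to 288 CPM in the aggressive AML libraries, with 8 of 13 lower and 1 higher. A set of 4 Y-linked genes summed to 251 to 287 CPM in the new AML libraries and had 0 counts in every aggressive AML library. The study, in contrast, describes the aggressive AML cells as derived from the new AML cells. Of the solute carrier genes on the X chromosome, 7 were tested and 1, Slc9a7, was called.

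Aggressive AML cells held more RNA of some solute carriers and less of others, and more of them fell than rose. By edgeR's quasi-likelihood test with an adjusted p under 0.05, 17 of the 198 genes (8.59%) were higher and 35 (17.7%) were lower in aggressive AML. Over all 12494 genes tested, 18.2% were called, 8.04% as higher and 10.2% as lower. The share of solute carriers that rose was therefore near that of all genes, and the share that fell was larger. Leaving out the names that are not carriers gave 50 calls among 192 carriers, 17 of them higher and 33 lower. For 58 of the solute carrier genes, all values of one group lay above those of the other (29.3%), against 21.8% of all genes tested. An unadjusted p under 0.05 was reached by 77 of the genes (38.9%), against 32.5% of all genes tested.

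Most changes were small. The median size of the fold change was 0.24 on the log2 scale over the 198 genes and 0.19 over all genes tested, and among the called solute carriers it was 0.57. A change of at least 1 on the log2 scale was reached by 3 genes that rose, Slc16a3, Slc35f3 and Slc15a2. It was also reached by 8 genes that fell, Slc24a2, Slc9a7, Slc8a1, Slc4a1, Slc14a1, Slco4c1, Slc16a7 and Slc15a3. Because the RNA was measured in bulk, fewer cells that express a gene and less RNA per cell cannot be told apart.

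**Figure D1:**
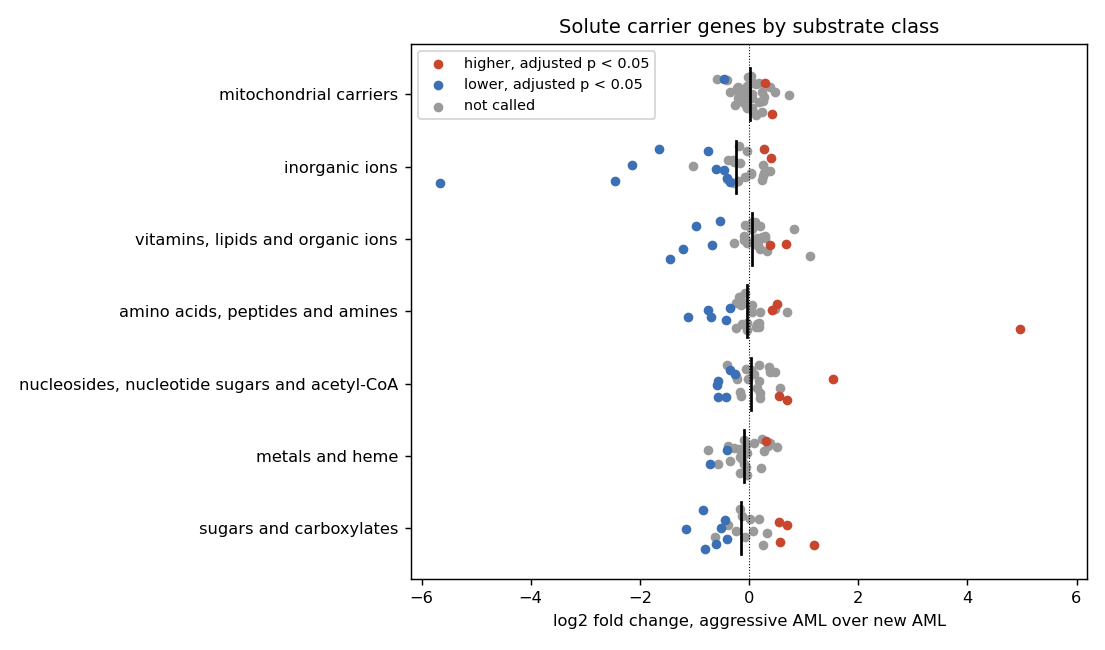
Each point is a tested solute carrier gene, placed by its substrate class (vertical axis) and its log2 fold change of aggressive over new AML (horizontal axis), and black bars mark class medians. Red points were higher and blue points lower at an adjusted p under 0.05. Called genes lie on both sides of 0 in each class, and the class of sugars and carboxylates has the largest share of called genes, 11 of 22, with 4 red and 7 blue points.

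Calls were spread unevenly over the substrate classes, which were assigned by family number and not gene by gene. Among genes of the class of sugars and carboxylates, 4 rose and 7 fell of 22 tested, and without its pseudogene 4 and 6 of 21 (47.6% called). For inorganic ions, 2 genes rose and 9 fell of 30, or 2 and 8 of 27 without the names that are not carriers, and the class had the lowest median fold change, -0.24. Carriers of nucleosides, nucleotide sugars and acetyl-CoA had 3 higher and 6 lower of 27. The class of amino acids, peptides and amines had 3 higher and 5 lower of 27, or of 25 without the names that are not carriers. Carriers of vitamins, lipids and organic ions had 2 higher and 5 lower of 29. In contrast, mitochondrial carriers had 2 higher and 1 lower of 38, and carriers of metals and heme had 1 higher and 2 lower of 25. The share called was thus 50.0% at one end and 7.89% at the other, beside 18.2% of all genes. Differences between classes were not tested.

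Carriers of cellular fuels moved in opposite directions within the same families. Slc16a3, which encodes MCT4, the carrier that exports lactate from glycolytic cells, was measured at 57.6, 48.4, 65.3 and 36.3 CPM in the new AML libraries and at 119, 127, 118 and 108 CPM in the aggressive AML libraries. Every aggressive AML library lay above every new AML library, and new AML library 4 was the lowest of all. The log2 fold change was 1.19 ± 0.14, adjusted p = 6.32e-05 (SE, n = 4 libraries per group, edgeR), and values in this form below are log2 fold changes of aggressive over new AML with their SE and the adjusted p of the same test. Slc2a1, which encodes the glucose carrier GLUT1, had 31.3, 28.1, 35.7 and 27.8 CPM in new AML and 46.8, 46.1, 49.4 and 39.5 CPM in aggressive AML. The groups did not overlap, and the change was 0.56 ± 0.11, adjusted p = 0.00216.

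The other genes of this class that rose act on glucose 6-phosphate and on urate. Slc37a4 encodes the carrier that brings glucose 6-phosphate into the endoplasmic reticulum, and its values were 54.8, 47.8, 48.3 and 52.3 CPM in new AML and 74.5, 75.6, 77.2 and 68.1 CPM in aggressive AML (0.54 ± 0.09, adjusted p = 4.06e-04). Each aggressive AML library was above the highest new AML library. Slc2a9, whose product carries urate, rose from 8.21, 14.3, 11.9 and 11.5 CPM to 20.8, 18.0, 18.0 and 17.8 CPM (0.70 ± 0.16, adjusted p = 0.00587). New AML library 1 was the lowest and aggressive AML library 1 the highest, and the groups did not overlap.

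Genes of families 2 and 16 also fell. Slc16a7, which encodes the monocarboxylate carrier MCT2, had 14.7, 16.5, 13.5 and 17.5 CPM in new AML and 6.27, 6.83, 6.35 and 8.42 CPM in aggressive AML (-1.15 ± 0.17, adjusted p = 1.26e-04). The highest aggressive AML value was well below the lowest new AML value. Slc2a6 encodes GLUT6, a member of the glucose carrier family that resides on lysosomes, and it was at 69.3, 71.1, 75.2 and 66.1 CPM in new AML and 38.2, 52.2, 57.3 and 50.5 CPM in aggressive AML (-0.51 ± 0.11, adjusted p = 0.00385). Aggressive AML library 1 was the lowest, and no value of one group reached the other. Slc16a10, which belongs to the monocarboxylate family but carries aromatic amino acids, had 138, 132, 128 and 122 CPM and 106, 109.7, 74.4 and 102 CPM in the respective groups (-0.41 ± 0.10, adjusted p = 0.0120). Aggressive AML library 3 was the lowest of the 8.

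Within these families, the make-up of the RNA differed between the groups. On a scale of CPM per kilobase of exon, Slc16a3 held 12.4% to 19.2% of the summed level of family 16 in new AML libraries and 30.8% to 33.7% in aggressive AML libraries. Slc16a10 held 25.5% to 28.6% and 14.4% to 19.6% of the same sum. Slc16a3 was thus below Slc16a10 in each new AML library and above it in each aggressive AML library. The carrier with the highest level per kilobase in family 2 was Slc2a6 in all 8 libraries, with 49.3% to 51.4% of the family in new AML and 33.1% to 40.8% in aggressive AML. The share of Slc2a1 was 12.9% to 16.0% in new AML and 20.7% to 26.6% in aggressive AML. The sum of family 2 includes the pseudogene Slc2a4rg-ps, which held 6.43% to 8.54% in new AML and 3.31% to 7.83% in aggressive AML. Slc16a1, which encodes the lactate carrier MCT1, was not called, with 57.2, 52.2, 71.1 and 52.7 CPM in new AML and 78.2, 79.8, 64.5 and 57.7 CPM in aggressive AML (0.26 ± 0.12, adjusted p = 0.142). Slc2a3, which encodes the glucose carrier GLUT3, was not called either (0.01 ± 0.15, adjusted p = 0.969).

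**Figure D2:**
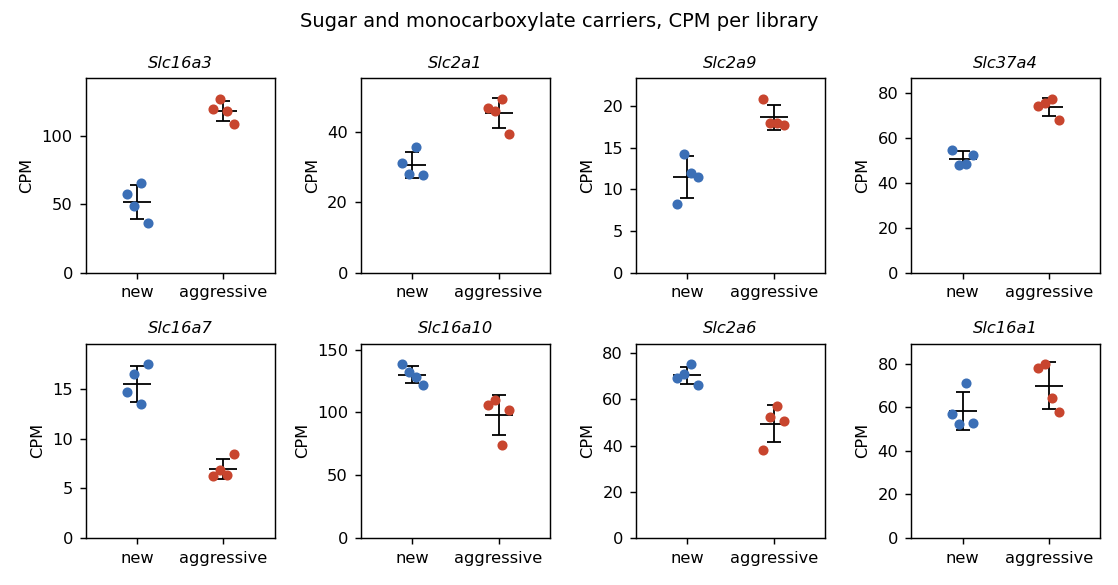
Level in CPM (vertical axis, from 0) of 8 genes of the class of sugars and carboxylates in the 4 new AML (blue) and 4 aggressive AML (red) libraries, with each point a library and black bars the mean and SD. The groups are apart in all panels except that of Slc16a1. The upper row rises to the right, as in Slc16a3 with 36.3 to 65.3 CPM against 108 to 127 CPM, and the first 3 panels of the lower row fall.

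The remaining called genes of this class were lower. They were Slc37a2, a sugar phosphate carrier (6.02 to 8.47 CPM in new AML and 2.83 to 5.58 CPM in aggressive AML, -0.85 ± 0.24, adjusted p = 0.0188), and Slc5a3, a sodium-coupled carrier of myo-inositol (4.72 to 7.25 and 2.53 to 4.36 CPM, -0.80 ± 0.24, adjusted p = 0.0289). Slc45a4 (-0.44, adjusted p = 0.0250) and the pseudogene Slc2a4rg-ps (-0.60, adjusted p = 0.0458) had overlapping groups. All of these calls depended on single libraries. Slc37a2 was no longer called without new AML library 1, 2 or 4 or aggressive AML library 1 or 2, with the highest adjusted p of 0.0624 without aggressive AML library 2. For Slc5a3, the call was lost without new AML library 2 or 4 or aggressive AML library 1 or 4, with the highest adjusted p of 0.105 without new AML library 2. Slc45a4 lost its call without new AML library 1, 2 or 4 or aggressive AML library 1 or 4, with the highest adjusted p of 0.0914 without new AML library 1. The same happened for Slc2a4rg-ps with a minimum of 5 CPM and without new AML library 1, 2, 3 or 4 or aggressive AML library 1, 2 or 3, with the highest adjusted p of 0.123 without new AML library 4.

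Promoter sequences are shown for carriers of fuels that moved in opposite directions and for the called gene with the most motif matches. The sequences are those of RefSeq on GRCm38.p6 (mm10), read on the strand of the gene from 250 bases before the start of the transcript to 50 bases after it, and one of them was found for 160 of the 207 genes. The motifs searched on both strands were ACGTG, the core of the hypoxia response element, TGATGNAA, the core of the amino acid response element, and CACGTG, the E-box, which contains ACGTG on both strands so that these matches overlap. Capitals mark matches to these motifs.
Slc16a3 (chr11:120948817-120949116, + strand): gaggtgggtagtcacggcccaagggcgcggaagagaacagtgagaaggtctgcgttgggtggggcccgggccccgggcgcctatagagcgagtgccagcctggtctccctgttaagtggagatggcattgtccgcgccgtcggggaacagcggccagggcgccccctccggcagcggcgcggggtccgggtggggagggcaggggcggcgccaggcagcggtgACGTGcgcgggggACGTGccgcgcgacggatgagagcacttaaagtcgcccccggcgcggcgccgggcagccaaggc
Slc2a1 (chr4:119108495-119108794, + strand): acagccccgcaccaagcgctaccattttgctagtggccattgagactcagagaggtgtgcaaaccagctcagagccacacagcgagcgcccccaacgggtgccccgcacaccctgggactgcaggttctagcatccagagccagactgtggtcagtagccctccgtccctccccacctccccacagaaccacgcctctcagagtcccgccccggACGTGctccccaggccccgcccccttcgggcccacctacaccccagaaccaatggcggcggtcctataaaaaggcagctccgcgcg
Slc2a6 (chr2:27027949-27028248, - strand): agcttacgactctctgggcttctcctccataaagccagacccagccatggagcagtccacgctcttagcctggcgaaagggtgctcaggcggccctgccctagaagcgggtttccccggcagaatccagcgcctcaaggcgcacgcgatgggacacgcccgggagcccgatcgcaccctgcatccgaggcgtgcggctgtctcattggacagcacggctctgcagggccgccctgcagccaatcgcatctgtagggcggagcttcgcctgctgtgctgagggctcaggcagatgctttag
Slc16a10 (chr10:40142205-40142504, - strand): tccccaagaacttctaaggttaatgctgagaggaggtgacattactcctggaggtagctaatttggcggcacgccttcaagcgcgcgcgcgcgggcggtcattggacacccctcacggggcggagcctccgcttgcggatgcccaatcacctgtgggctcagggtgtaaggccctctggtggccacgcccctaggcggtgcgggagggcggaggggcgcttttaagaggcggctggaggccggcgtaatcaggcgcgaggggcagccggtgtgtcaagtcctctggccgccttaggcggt
Slc36a1 (chr11:55204090-55204389, + strand): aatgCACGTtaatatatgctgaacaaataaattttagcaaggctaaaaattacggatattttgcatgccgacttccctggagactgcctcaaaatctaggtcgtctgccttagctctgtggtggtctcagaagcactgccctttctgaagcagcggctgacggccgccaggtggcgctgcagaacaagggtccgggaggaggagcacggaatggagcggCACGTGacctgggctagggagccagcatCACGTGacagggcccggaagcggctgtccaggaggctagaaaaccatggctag
The promoters of Slc16a3 and Slc2a1, which rose, hold ACGTG close to the start of the transcript. The promoters of Slc37a4 and Slc2a9, which also rose, hold no ACGTG. Those of Slc2a6 and Slc16a10, which fell, hold none of the 3 motifs in this window. The promoter of Slc36a1, a lysosomal amino acid carrier that fell, holds 2 E-boxes near the start, which contain ACGTG. It also holds an ACGTG match at the far end of the window.

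Counted over all members with a promoter sequence, ACGTG was found for 7 of 14 genes that rose (50.0%), 5 of 27 that fell (18.5%) and 38 of 111 tested genes that were not called (34.2%). It occurred in 19.6% of all 32851 promoters of the same length and, counted by gene as for the members, for 21.8% of 27025 genes. The genes that rose and held it were Slc16a3, Slc2a1, Slc3a2, Slc15a2, Slc22a4, Slc25a15 and Slc35f3. CACGTG was found for 2 of the 14, 5 of the 27 and 19 of the 111 genes, beside 7.15% of all promoters and 8.09% of all genes. TGATGNAA was found for 0, 1 and 3 of them, beside 3.97% of all promoters and 4.51% of all genes. A match gives only the letters in the window, and binding was not measured.

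Of 27 tested genes in the class of amino acids, peptides and amines, 25 of them carriers, 3 rose and 5 fell. Slc7a1, the carrier of the cationic amino acids arginine and lysine, had 181, 145, 169.8 and 129 CPM in new AML and 199, 250.4, 184 and 204 CPM in aggressive AML (0.42 ± 0.11, adjusted p = 0.0166). Aggressive AML library 2 was the highest, and the gap between the groups was narrow. Slc3a2 encodes the heavy chain that brings several family 7 carriers to the cell surface, and it had 114, 100.1, 114 and 87.0 CPM and 169, 177, 142 and 108 CPM (0.52 ± 0.14, adjusted p = 0.0252). Aggressive AML library 4 lay within the range of new AML. Slc7a5, which encodes LAT1, the leucine carrier that pairs with the Slc3a2 heavy chain, had 121, 102, 107 and 70.1 CPM in new AML and 121, 168, 140.0 and 126 CPM in aggressive AML and missed the threshold (0.47 ± 0.15, adjusted p = 0.0553). Its adjusted p ranged from 0.0111 to 0.146 over 14 alternative settings and passed in 5 of them. All 6 tested genes filed in family 7, which include Slc7a6os, a name that is not a carrier, had a fold change above 0. Of these, 1 was called.

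The call of Slc7a1 was lost without new AML library 2 or aggressive AML library 2, with the highest adjusted p of 0.0579 without new AML library 2. Slc3a2 lost its call without new AML library 2 or 4 or aggressive AML library 1, 2 or 3, with the highest adjusted p of 0.0731 without new AML library 4. Slc1a5, the glutamine carrier, and Slc38a2, another carrier of neutral amino acids, were among the most abundant members and were not called (0.12 ± 0.09, adjusted p = 0.387 for Slc1a5 and -0.04 ± 0.11, adjusted p = 0.830 for Slc38a2). Slc15a2, a proton-coupled carrier of small peptides, had 0, 2, 0 and 0 counts in the new AML libraries and 9, 18, 24 and 21 counts in the aggressive AML libraries. It was nearly without counts in new AML and present in each aggressive AML library. The ratio of summed levels was 38.9-fold (95% exact interval 10.4 to 327, counting error only), and edgeR gave an adjusted p of 1.54e-04.

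**Figure D3:**
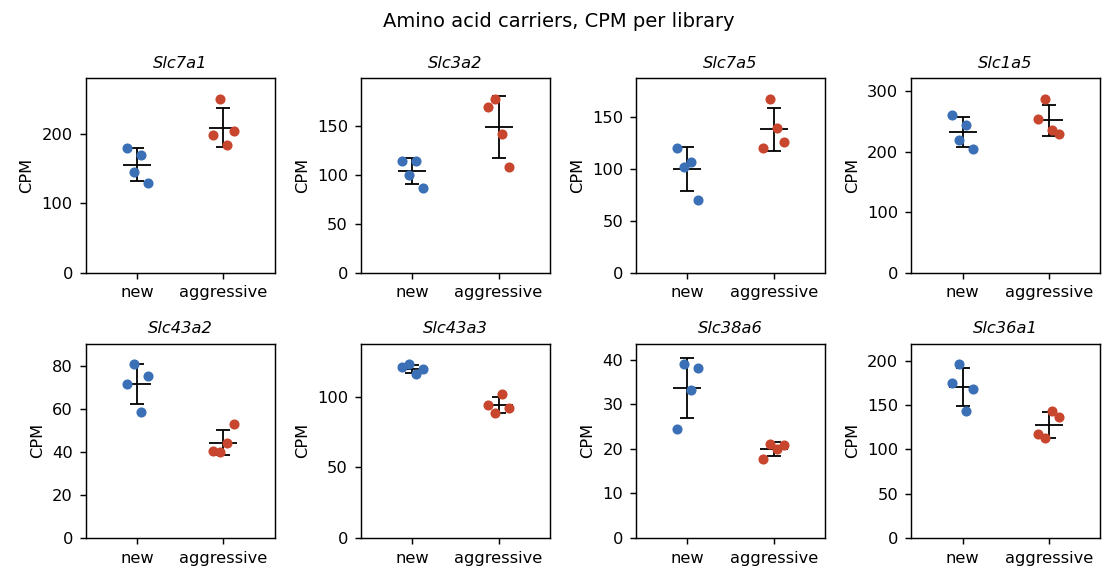
Level in CPM (vertical axis, from 0) of 8 amino acid carriers in the 4 new AML (blue) and 4 aggressive AML (red) libraries, with each point a library and black bars the mean and SD. Slc7a1 is higher in all aggressive AML libraries, the groups overlap for Slc3a2, Slc7a5 and Slc1a5, and the lower row shows genes that fell, such as Slc43a2 from 58.6 to 80.5 CPM down to 39.9 to 52.7 CPM.

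Genes of this class that fell were Slc43a2, Slc38a6, Slc15a3, Slc36a1 and Slc43a3. Slc43a2, which encodes LAT4, a facilitator of neutral amino acids, had 71.5, 80.5, 58.6 and 75.1 CPM in new AML and 40.2, 39.9, 43.9 and 52.7 CPM in aggressive AML (-0.69 ± 0.11, adjusted p = 4.79e-04). The groups did not overlap, and 7.62% of its exon bases are shared with another gene. Slc38a6 was at 24.4, 39.0, 33.2 and 38.2 CPM and 17.7, 21.2, 20.0 and 20.8 CPM (-0.76 ± 0.14, adjusted p = 0.00135), with a narrow range in aggressive AML. Slc43a3, filed in the same family but known as a carrier of purine nucleobases, ranged over 116 to 123 CPM in new AML and 88.8 to 102 CPM in aggressive AML (-0.35 ± 0.08, adjusted p = 0.00413). Slc15a3, a histidine and peptide carrier of lysosomes and endosomes, ranged over 4.40 to 10.3 and 3.06 to 4.28 CPM (-1.12 ± 0.27, adjusted p = 0.00713). Slc36a1, which exports amino acids and protons from lysosomes, had 175, 196, 143 and 168 CPM in new AML and 117, 113, 143 and 136 CPM in aggressive AML (-0.42 ± 0.10, adjusted p = 0.00756). The lowest new AML value lay just above the highest aggressive AML value.

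Carriers of inorganic ions fell more often than they rose. Slc8a1, which encodes the sodium/calcium exchanger NCX1 of the plasma membrane, had 8.93, 8.92, 9.26 and 16.1 CPM in new AML and 2.17, 2.95, 2.59 and 2.05 CPM in aggressive AML (-2.14 ± 0.25, adjusted p = 2.00e-05). New AML library 4 was the highest, and every aggressive AML library was below 3 CPM. Slc24a2, a sodium/calcium exchanger that also carries potassium, had 17, 21, 25 and 18 counts in new AML and 0, 0, 1 and 0 counts in aggressive AML. Its summed level was 75.0-fold lower in aggressive AML (95% exact interval 13.1 to 2998, counting error only), with an adjusted p of 2.82e-05 by edgeR. Slc8b1, which encodes the sodium/calcium exchanger of mitochondria, moved the other way, with 90.8, 98.0, 99.3 and 87.2 CPM in new AML and 121, 119, 104 and 112 CPM in aggressive AML (0.28 ± 0.08, adjusted p = 0.0244). The call of Slc8b1 was lost without new AML library 1 or 4 or aggressive AML library 1 or 2, with the highest adjusted p of 0.0778 without new AML library 4.

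Sodium/proton exchangers, which set the pH of the cytosol and of organelles, were lower as far as they were called. In family 9, counted with the scaffold proteins Slc9a3r1 and Slc9a3r2, 4 of 8 tested genes were lower, 0 were higher, and 1 had a fold change above 0. Slc9a7, an X-linked exchanger of the Golgi and endosomes, had 7.91, 8.68, 6.02 and 10.5 CPM in new AML and 0.482, 0.943, 3.63 and 1.02 CPM in aggressive AML (-2.46 ± 0.42, adjusted p = 0.00121). Aggressive AML library 3 was the highest of its group and still below all new AML libraries. Slc9a9, an endosomal exchanger, had 19.2, 16.5, 14.9 and 24.5 CPM and 10.8, 8.01, 12.8 and 13.1 CPM (-0.75 ± 0.18, adjusted p = 0.00916). Slc9a3r1, also called as lower, encodes a scaffold that binds exchangers and other membrane proteins, and ranged over 112 to 123 and 77.4 to 104 CPM (-0.46 ± 0.09, adjusted p = 0.00228).

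**Figure D4:**
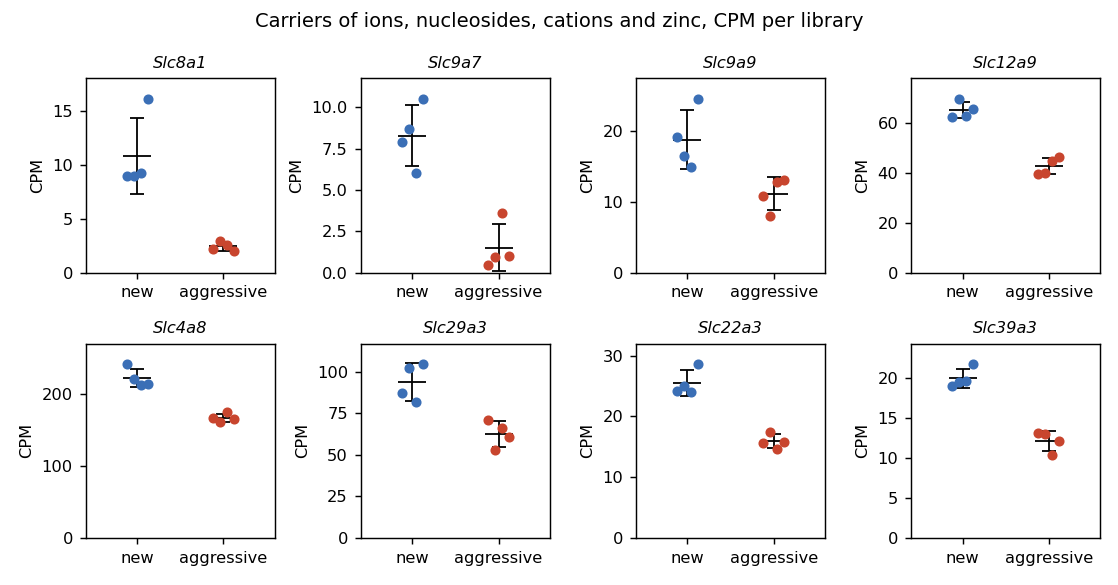
Level in CPM (vertical axis, from 0) of 8 carriers of ions, nucleosides, cations and zinc in the 4 new AML (blue) and 4 aggressive AML (red) libraries, with each point a library and black bars the mean and SD. In every panel the aggressive AML points lie below the new AML points, with the widest relative gap for Slc8a1 and Slc9a7 and tight groups for Slc12a9, with 62.2 to 69.3 CPM against 39.6 to 46.1 CPM.

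Among the other ion carriers, Slc12a9, a member of the cation-chloride cotransporter family, had 62.2, 69.3, 62.7 and 65.6 CPM in new AML and 39.6, 39.9, 44.7 and 46.1 CPM in aggressive AML (-0.61 ± 0.09, adjusted p = 2.00e-04). Slc4a8, which brings bicarbonate into cells with sodium, had 242, 222, 214 and 214 CPM and 167, 162, 175 and 166 CPM (-0.41 ± 0.07, adjusted p = 6.76e-04). Both genes were tightly grouped, with a clear gap between new and aggressive AML. Slc20a2, which encodes the phosphate carrier PiT2, had 28.6, 28.4, 28.8 and 28.5 CPM in new AML and 41.0, 36.9, 40.3 and 33.2 CPM in aggressive AML (0.40 ± 0.10, adjusted p = 0.0122). The new AML libraries were nearly equal, and each aggressive AML library was higher. Slc20a2 (chr8:22476700-22569616, + strand) lies 78079 bases from Slc25a15 (chr8:22375550-22398621, - strand), the ornithine carrier of mitochondria, which also rose. This was the only pair with both genes called among 13 pairs of members that lie next to each other within 100000 bases.

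Slc4a1 encodes band 3, the anion exchanger of red blood cells, and fell from 4.62, 1.66, 4.13 and 5.91 CPM to 2.29, 0.118, 1.30 and 1.48 CPM (-1.65 ± 0.51, adjusted p = 0.0368). New AML library 2 lay inside the range of aggressive AML, and the call was lost without new AML library 1, 3 or 4 or aggressive AML library 3 or 4, with the highest adjusted p of 0.108 without new AML library 4. Slc14a1, the urea carrier of red blood cells, ranged over 1.85 to 2.79 CPM in new AML and 0.471 to 1.30 CPM in aggressive AML (-1.44 ± 0.38, adjusted p = 0.0145), and lost its call without aggressive AML library 2, with an adjusted p of 0.0503. The summed level of 10 erythroid markers was 29.4 to 101 CPM in the new AML libraries and 10.6 to 54.0 CPM in the aggressive AML libraries, and 1 of the 7 that were tested was lower. The part of erythroid RNA in the values of both carriers was not tested.

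Nucleoside carriers of different kinds moved apart. Slc28a2, a sodium-coupled carrier that concentrates purine nucleosides, had 17.8, 20.9, 24.5 and 24.5 CPM in new AML and 28.9, 41.2, 36.8 and 35.5 CPM in aggressive AML (0.70 ± 0.14, adjusted p = 0.00165). No value of aggressive AML fell into the range of new AML. In contrast, 2 of 3 tested equilibrative carriers of family 29 were lower. Slc29a3, the carrier ENT3 of lysosomes, had 87.0, 103, 81.5 and 104 CPM and 70.9, 52.9, 66.0 and 60.8 CPM (-0.58 ± 0.11, adjusted p = 0.00101), without overlap. Slc29a1, the carrier ENT1 of the plasma membrane, ranged over 102 to 111 CPM in new AML and 71.1 to 89.4 CPM in aggressive AML (-0.35 ± 0.09, adjusted p = 0.00855), and 10.4% of its exon bases are shared with another gene. The third, Slc29a2 (ENT2), was not called and had 8.11, 6.54, 6.47 and 4.01 CPM in new AML and 9.76, 10.8, 7.78 and 8.88 CPM in aggressive AML (0.57 ± 0.21, adjusted p = 0.0754).

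Family 35 carries nucleotide sugars and related molecules into the Golgi and endoplasmic reticulum, and 2 of its 22 genes rose and 4 fell. Slc35f3 ranged over 1.00 to 3.39 CPM in new AML and had 5.66, 5.77, 8.94 and 5.92 CPM in aggressive AML (1.53 ± 0.31, adjusted p = 0.00216), the largest fold change of the family. Aggressive AML library 3 was the highest. Slc35b3, which carries the sulfate donor PAPS into the Golgi, ranged over 19.5 to 28.2 and 29.0 to 42.1 CPM (0.54 ± 0.15, adjusted p = 0.0157), and 11.2% of its exon bases are shared with another gene. Its call was lost without new AML library 1 or 2, with the highest adjusted p of 0.0624 without new AML library 2. Slc35b4, a carrier of UDP-xylose and UDP-N-acetylglucosamine, fell from a range of 66.7 to 77.6 CPM to one of 43.2 to 66.6 CPM (-0.43 ± 0.11, adjusted p = 0.0144). Slc35e3 (-0.57 ± 0.15, adjusted p = 0.0132), Slc35a5 (-0.57 ± 0.16, adjusted p = 0.0202) and Slc35c2 (-0.26 ± 0.08, adjusted p = 0.0271) were also lower. Slc35e3 lost its call without new AML library 1, with an adjusted p of 0.0527. The call of Slc35a5 was lost without new AML library 2 or 4 or aggressive AML library 1 or 2, with the highest adjusted p of 0.0757 without new AML library 4. For Slc35c2 it was lost without new AML library 1 or 2 or aggressive AML library 3 or 4, with the highest adjusted p of 0.0915 without new AML library 2.

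Among 25 tested carriers of metals and heme, 1 rose and 2 fell. Slc48a1, the heme carrier HRG1 of lysosomes and endosomes, had 94.0, 91.4, 85.9 and 104 CPM in new AML and 120.4, 113, 121 and 110.2 CPM in aggressive AML (0.31 ± 0.08, adjusted p = 0.0147), and its call was lost without new AML library 2, with an adjusted p of 0.0536. The zinc importers Slc39a3 and Slc39a10 were lower. Slc39a3 ranged over 19.1 to 21.7 CPM in new AML and 10.4 to 13.1 CPM in aggressive AML (-0.72 ± 0.14, adjusted p = 0.00136), and Slc39a10 over 39.4 to 46.5 and 28.5 to 36.5 CPM (-0.41 ± 0.11, adjusted p = 0.0132). Neither showed overlapping groups.

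The mitochondrial carriers of family 25 hold the most abundant members. Per kilobase of exon, Slc25a5 had 526 CPM and Slc25a3 269 CPM as means over the 8 libraries, followed by Slc44a2 with 96.2, Slc39a7 with 89.4, Slc1a5 with 87.5, Slc35c2 with 81.6, Slc25a4 with 80.3, Slc38a2 with 66.6, Slc25a11 with 62.0 and Slc35b1 with 58.1 CPM. Slc39a7 shares 84.5% of its exon bases with another annotated gene. Among these 10 genes, Slc25a4 was higher, Slc35c2 was lower and the others were not called. Slc25a4 and Slc25a5 encode exchangers of ADP and ATP across the inner membrane. Slc25a4 had 128, 134, 162 and 131 CPM in new AML and 174, 175, 172 and 162 CPM in aggressive AML (0.30 ± 0.08, adjusted p = 0.0197). Its groups overlapped slightly, and the call was lost without new AML library 1, 2 or 4 or aggressive AML library 1 or 2, with the highest adjusted p of 0.0679 without new AML library 2. Slc25a5 had 570.1, 569.7, 679.7 and 585 CPM and 764, 703, 726 and 625 CPM and missed the threshold (0.23 ± 0.08, adjusted p = 0.0589), as did the phosphate carrier Slc25a3 (0.19 ± 0.07, adjusted p = 0.0772). Slc25a15, the ornithine carrier, rose from a range of 30.9 to 35.3 CPM to one of 38.7 to 51.5 CPM (0.42 ± 0.11, adjusted p = 0.0133), a call that was lost without aggressive AML library 2, with an adjusted p of 0.0605. Slc25a45 fell from a range of 84.3 to 96.4 CPM to one of 55.4 to 72.8 CPM (-0.45 ± 0.10, adjusted p = 0.00378).

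**Figure D5:**
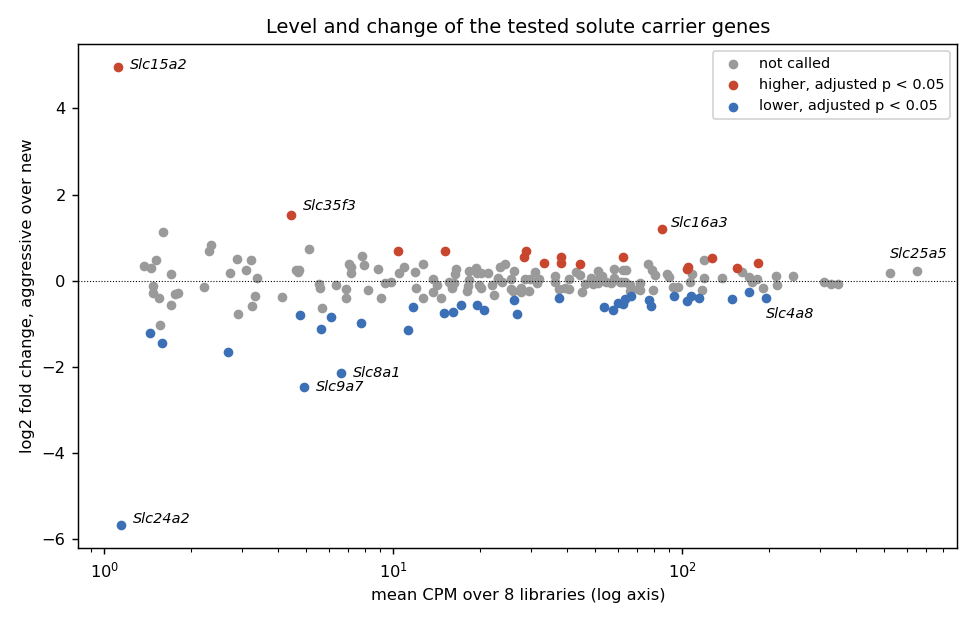
Mean level over the 8 libraries in CPM (horizontal log axis) against the log2 fold change of aggressive over new AML (vertical axis) for the 198 tested solute carrier genes, with genes called higher in red, lower in blue and the rest in gray. The fold changes beyond 2 lie at levels under 10 CPM (Slc15a2, Slc24a2, Slc9a7 and Slc8a1), and Slc16a3 stands out among the genes near 100 CPM.

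Among carriers of vitamins, lipids and organic ions, Slc22a4, which carries ergothioneine, rose from 35.8, 37.9, 36.4 and 43.9 CPM to 49.0, 49.0, 55.5 and 48.0 CPM (0.39 ± 0.10, adjusted p = 0.0130). Slc22a15 ranged over 6.57 to 8.81 CPM in new AML and 8.92 to 17.5 CPM in aggressive AML (0.68 ± 0.20, adjusted p = 0.0274), with a narrow gap, and lost its call without new AML library 1, 2 or 4 or aggressive AML library 2 or 3, with the highest adjusted p of 0.0866 without new AML library 1. Slc22a3, the organic cation carrier OCT3, moved in the other direction, with 24.0 to 28.5 CPM in new AML and 14.6 to 17.4 CPM in aggressive AML (-0.68 ± 0.12, adjusted p = 9.84e-04). Its groups were far apart relative to their spread. Slc46a3, a lysosomal carrier, ranged over 6.54 to 13.6 and 3.53 to 7.00 CPM (-0.97 ± 0.24, adjusted p = 0.0102), and Slc44a1, a choline carrier, over 59.1 to 88.9 and 38.0 to 66.5 CPM (-0.53 ± 0.16, adjusted p = 0.0342). Both had overlapping groups, and Slc44a1 lost its call without new AML library 2, 3 or 4 or aggressive AML library 1, 2 or 4, with the highest adjusted p of 0.0981 without new AML library 4. Slco4c1, an organic anion carrier, ranged over 1.45 to 2.50 and 0.389 to 1.25 CPM (-1.21 ± 0.40, adjusted p = 0.0423), and lost its call by the DESeq2 Wald test and also without new AML library 1, 2 or 4 or aggressive AML library 1, 2 or 3, with the highest adjusted p of 0.119 without new AML library 2.

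Carriers of lysosomes and endosomes were gathered into a list after their values had been seen, so that it received no test. Of 16 such genes, 6 were lower (Slc2a6, Slc9a9, Slc15a3, Slc29a3, Slc36a1 and Slc46a3), 1 was higher (Slc48a1), and 2 had a fold change above 0. Over all genes tested, 10.2% were called lower and 8.04% higher, but a list gathered this way cannot be weighed against these shares. The median fold change of the 16 genes was -0.29 on the log2 scale, beside -0.04 over all tested solute carriers. The summed neutrophil markers described above, with 8 of 13 lower and 1 higher, moved in the same direction as these genes. So did Csf1r, Itgam and the macrophage marker Adgre1 (83.1 CPM in new AML and 46.9 CPM in aggressive AML as means). From the same marker list as Csf1r and Itgam, Kit (log2 fold change 0.65) and Meis1 (0.45) were higher, and the other 5 were not called. The summed level of 4 macrophage markers was 64.6 to 111 CPM in new AML and 37.8 to 57.4 CPM in aggressive AML. Most of this sum was Adgre1 itself, while Vcam1 and Mrc1 were not called and C1qc was not tested. The part of cell maturity or of other cells in these values was not tested.

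Genes that work with carriers were described from 3 further lists. Of 36 tested solute carriers that are filed under other symbols, 0 were higher and 6 were lower, and the share called, 16.7%, was near the 18.2% of all genes. Unc93b1, which escorts Toll-like receptors to endosomes, averaged 423.5 CPM in new AML and 295.0 CPM in aggressive AML (log2 fold change -0.52), and Ucp2, a mitochondrial carrier, 839 and 602 CPM (-0.48). Npc1, which exports cholesterol from lysosomes, and Mfsd12, a carrier of lysosomes and melanosomes, had log2 fold changes of -0.39 and -0.45. The call of Npc1 was lost without new AML library 2 (adjusted p = 0.0536) and that of Mfsd12 without new AML library 2, 3 or 4 (up to 0.0622). Of 20 chaperones and partners of carriers, 3 were higher and 3 were lower, beside 8.04% and 10.2% of all genes. Nedd4, a ubiquitin ligase that removes carriers and channels from the membrane, rose from 96.2 to 174 CPM (0.85), while the kinase Wnk1, which controls cation-chloride cotransport, fell from 386 to 282 CPM (-0.45). Cab39 (0.36) and Ezr (0.40) were also higher, and Ttyh3 (-0.27) and Tmem59 (-0.28) were also lower. Ttyh3 lost its call without new AML library 1 or 2 or aggressive AML library 1 or 2 (adjusted p up to 0.0948). Tmem59 lost its call without new AML library 2 or 4 or aggressive AML library 1 or 2 (up to 0.0764).

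Ion pumps supply the gradients that carriers use, and 2 of 32 were higher and 4 were lower, a share of 18.8% near the 18.2% of all genes. The proton pump of acidic organelles did not move as a whole. Its subunit Atp6v0c and its accessory protein Atp6ap2 were higher (0.41 and 0.39), and its subunits Tcirg1 and Atp6v1b2 were lower (-0.30 and -0.28). Atp13a2, a lysosomal polyamine exporter, averaged 269 CPM in new AML and 180.3 CPM in aggressive AML (-0.58). Atp1b1, the beta subunit of the sodium pump, was lower as well (-0.59), a call that was lost without new AML library 1, 2 or 4 or aggressive AML library 2, with the highest adjusted p of 0.0887 without new AML library 1.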

How the data were processed

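RNA was sequenced by the authors from 8 libraries of MLL-AF9 leukemia cells, 4 new AML and 4 aggressive AML, after poly-A selection. The authors aligned paired reads to mm10 with HISAT2, counted reads per gene with Rsubread and removed genes under 1 CPM. The annotation and strand setting of the counting are not given in the sources used here, so overlapping genes are uncertain. Although its name says CPM, the deposited table holds whole numbers with a different total per library, and these deposited values were used as raw counts.

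All 12823 rows were fitted with edgeR (version 4.0.16, R 4.3.3) by the robust quasi-likelihood test on the group alone, with TMM factors, for the 12494 genes that reached 1 CPM in 4 or more libraries. P-values were two-sided and adjusted by Benjamini-Hochberg over all genes tested, with a threshold of 0.05. On simulated counts with known changes of 1 or 2 on the log2 scale, the test called 88 of 100 genes changed by 1. Smaller changes, such as the median of 0.57 among the called solute carriers, were not simulated. CPM values carry the TMM factors, and level per kilobase divides CPM by the exon length of GENCODE on the same build. Alternatives used DESeq2 (version 1.42.0, size factors or Wald test), limma (version 3.58.1) on log2(CPM + 1), no filter, a minimum of 5 CPM, the replicate number as a block, and each library left out in turn. Total counts limit each value to steps of 0.103 to 0.130 CPM.

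The members, substrate classes and lists were chosen with earlier results of these data known. Genes named by rule were, in each direction, the 12 members with the largest fold change among those called, whose groups did not overlap and whose higher group averaged 10 CPM or more, then the 10 most abundant per kilobase, Slc2a1, Slc16a3 and Slc7a5, the called member of each class with the smallest adjusted p in each direction, and for the lists of companion genes up to 4 called genes per direction. All other genes named were chosen after their values were seen. Some genes that were counted are not reported here by name.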

Additional observations from a re-analysis of the deposited data

Results flagged for a closer look

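In 13 of 122 groups of 4 libraries examined over 61 named members, 1 library stood apart from the other 3 by Dixon's test. Chance alone flags about 1 in 20 such groups. Among new AML libraries these were Slc25a11 in library 1 (102.8 CPM), Slc29a1 in library 1 (111.3 CPM), Slc15a2 in library 2 (0.238 CPM), Slc25a5 in library 3 (679.7 CPM), Slc37a2 in library 3 (6.02 CPM), Slc9a3r1 in library 3 (112.3 CPM) and Slc8a1 in library 4 (16.1 CPM). In aggressive AML they were Slc2a9 in library 1 (20.8 CPM), Slc22a4 in library 3 (55.5 CPM), Slc24a2 in library 3 (0.130 CPM), Slc35f3 in library 3 (8.94 CPM), Slc25a3 in library 4 (513.6 CPM) and Slc35a5 in library 4 (21.3 CPM). The values of Slc15a2 and Slc24a2 rest on 2 counts and 1 count.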

How the results depend on the processing

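The main test called 52 solute carriers. The alternatives that keep all libraries called 47 to 58, with DESeq2's Wald test giving 58, limma 53, no filter 55 and a minimum of 5 CPM 47, over fewer genes tested. Leaving out each library in turn gave 39 to 55 calls, of which 11 to 23 were higher and 26 to 34 were lower. The lowest count of higher genes, 11 against 17, came without aggressive AML library 2. Of the 52 genes, 32 were called in every alternative with a value, and 0 of the 52 changed sign. The sign of Slc38a2, which was not called, changed from -0.04 to 0.06 without aggressive AML library 3 (leave-one-out range -0.12 to 0.06), and the cause was not tested. With the replicate block, 55 genes were called. The numbers were not taken as pairs, since the correlations of the deviations of same-numbered libraries were 0.0967, -0.0399, -0.0654 and 0.204, and 2 of the 4 numbers had their own partner as the best. Of 847 values of 61 named members under 14 alternatives, 757 kept their sign and their side of the threshold. Depth limits genes near 1 CPM, where a few counts decide a value.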

Other observations

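Among the members that were not tested because of low values, Slc25a27, a mitochondrial carrier, had 16, 11, 9 and 42 counts in the new AML libraries and 1, 2, 1 and 2 counts in the aggressive AML libraries. Slc43a1, which encodes the neutral amino acid facilitator LAT3, had 12, 5, 10 and 12 counts in new AML and 2, 0, 0 and 0 counts in aggressive AML. The ratio of summed levels was 12.04-fold lower in aggressive AML for Slc25a27 (95% exact interval 5.29 to 33.8) and 18.1-fold lower for Slc43a1 (4.67 to 154), and both intervals cover counting error only. These genes were chosen after their values were seen.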
